A study of Drosophila melanogaster with 2 samples.

Results

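The 10 genes described here encode nuclear receptors of the ecdysone cascade: usp, Eip75B, Eip78C, Hr3, Hr4, ftz-f1, Hr39, svp, Hr38 and Hr51. They were listed by name, with no threshold on their peaks, out of 13968 protein-coding genes on the 7 assembled arms, and EcR itself is not one of them. The peaks come from chromatin immunoprecipitation and sequencing (ChIP-seq) in which anti-GFP antibody was used on chromatin of whole Drosophila melanogaster embryos of the tna-GFP strain, which carries an insertion at tna and expresses tna-eGFP fusion proteins. The gene tna (tonalli) encodes an SP-RING protein and interacts genetically with genes of the Brahma chromatin remodeller. Embryos were 0 to 24 h old, so that all embryonic stages and tissues were mixed, and the 2 samples were biological replicates 1 and 2 of 1 group. Untagged embryos were not analysed here, no test between groups exists, and the depth of the libraries is unknown.

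Ecdysone, the steroid hormone of insects, acts through a heterodimer of EcR and Usp that binds DNA and switches on a small set of early genes. Several of those genes encode further nuclear receptors, which activate and repress one another in a timed relay, best known from moulting and metamorphosis and also set off by the ecdysone pulse of the embryo. Nuclear receptors recognise half-sites related to AGGTCA, as pairs or as single copies with an extension at the 5′ side, and many receptor genes use alternative starts that give proteins with different N termini.

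The sequences around 5 of the summits are shown because they hold the strings on which the comparison of sequence turns. A summit is the position of the highest signal within a peak, and each stretch reaches 100 bp to either side of it, read 5′ to 3′ on the strand of the gene from the RefSeq sequence of the dm6 assembly. The promoter of ftz-f1 is chr3L:18801443-18801643 (minus strand), its intron chr3L:18759266-18759466 (minus), the promoter of svp chr3R:12280881-12281081 (plus), that of Hr38 chr2L:20714610-20714810 (minus) and the intron of Eip78C chr3L:21243019-21243219 (plus). Capitals mark 3 strings wherever they occur on either strand. The first is CGATA, which appears as TATCG where it lies on the opposite strand. The second is the receptor half-site AGGTCA, which then appears as TGACCT. The last is GAGAG, which then appears as CTCTC, and overlapping matches form 1 longer run of capitals.
ftz-f1 promoter: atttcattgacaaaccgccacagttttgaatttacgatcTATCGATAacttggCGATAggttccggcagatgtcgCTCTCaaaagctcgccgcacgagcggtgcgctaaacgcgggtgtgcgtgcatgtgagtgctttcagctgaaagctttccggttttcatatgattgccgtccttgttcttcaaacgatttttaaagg
ftz-f1 intron: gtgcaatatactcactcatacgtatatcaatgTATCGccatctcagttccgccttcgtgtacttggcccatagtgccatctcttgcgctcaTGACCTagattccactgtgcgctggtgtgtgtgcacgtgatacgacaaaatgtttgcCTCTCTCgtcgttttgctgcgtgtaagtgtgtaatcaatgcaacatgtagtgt
svp promoter: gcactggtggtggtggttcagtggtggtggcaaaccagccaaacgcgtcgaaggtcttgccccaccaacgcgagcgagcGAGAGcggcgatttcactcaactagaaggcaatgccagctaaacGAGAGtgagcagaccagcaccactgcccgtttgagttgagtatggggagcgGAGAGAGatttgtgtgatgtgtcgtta
Hr38 promoter: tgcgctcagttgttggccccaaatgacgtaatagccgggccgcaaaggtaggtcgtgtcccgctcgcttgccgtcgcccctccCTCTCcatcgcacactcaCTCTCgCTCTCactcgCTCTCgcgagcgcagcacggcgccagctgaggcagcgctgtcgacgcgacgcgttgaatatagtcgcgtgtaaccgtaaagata
Eip78C intron: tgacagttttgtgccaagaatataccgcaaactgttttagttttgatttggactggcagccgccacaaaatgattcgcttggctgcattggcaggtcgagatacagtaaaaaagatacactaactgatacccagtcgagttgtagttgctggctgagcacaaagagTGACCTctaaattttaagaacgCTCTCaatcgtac

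Peaks lay on 6 of the 10 genes in the conservative list, the 2580 peaks that both replicates ranked alike (an irreproducible discovery rate, IDR, of at most 0.01). Of all protein-coding genes, 19.7% had a summit in the body or within 500 bp of a start. A promoter summit, within 500 bp of any start of the gene, was found at 5 members, Eip75B, Hr38, ftz-f1, svp and usp, against 18.2% of all genes. Eip78C carried a summit in an intron, and Hr3, Hr4, Hr39 and Hr51 carried none. In each replicate's own list the promoter count was 5 members in replicate 1 (16.4% of all genes) and 4 in replicate 2 (17.7% of all genes). Counting the gene body as well, replicate 1 had 5 members (18.0%) and replicate 2 had 4 (19.1%).

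The members in the replicate lists were not all the same. Promoters of Eip75B, ftz-f1 and svp were in both, usp and Eip78C were in the replicate 1 list alone, and Hr38 was in the replicate 2 list alone. The other list that the authors made from both replicates held 3500 peaks and placed promoter summits at 6 members, with 22.2% of all genes, and summits on 7, with 24.3% of all genes. The added genes there were Eip78C at its promoter and Hr39 in an intron. The conservative list held 9 summits on the members, the other list 18, replicate 1 alone 9 and replicate 2 alone 15. With the IDR limited to 0.001, summits remained on 2 members, at the promoters of ftz-f1 and svp, and 9.23% of all genes had a promoter summit. When the peak interval itself had to cover a start, promoters of 3 members counted, Hr38, svp and usp, against 14.5% of all genes.

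**Figure D1:**
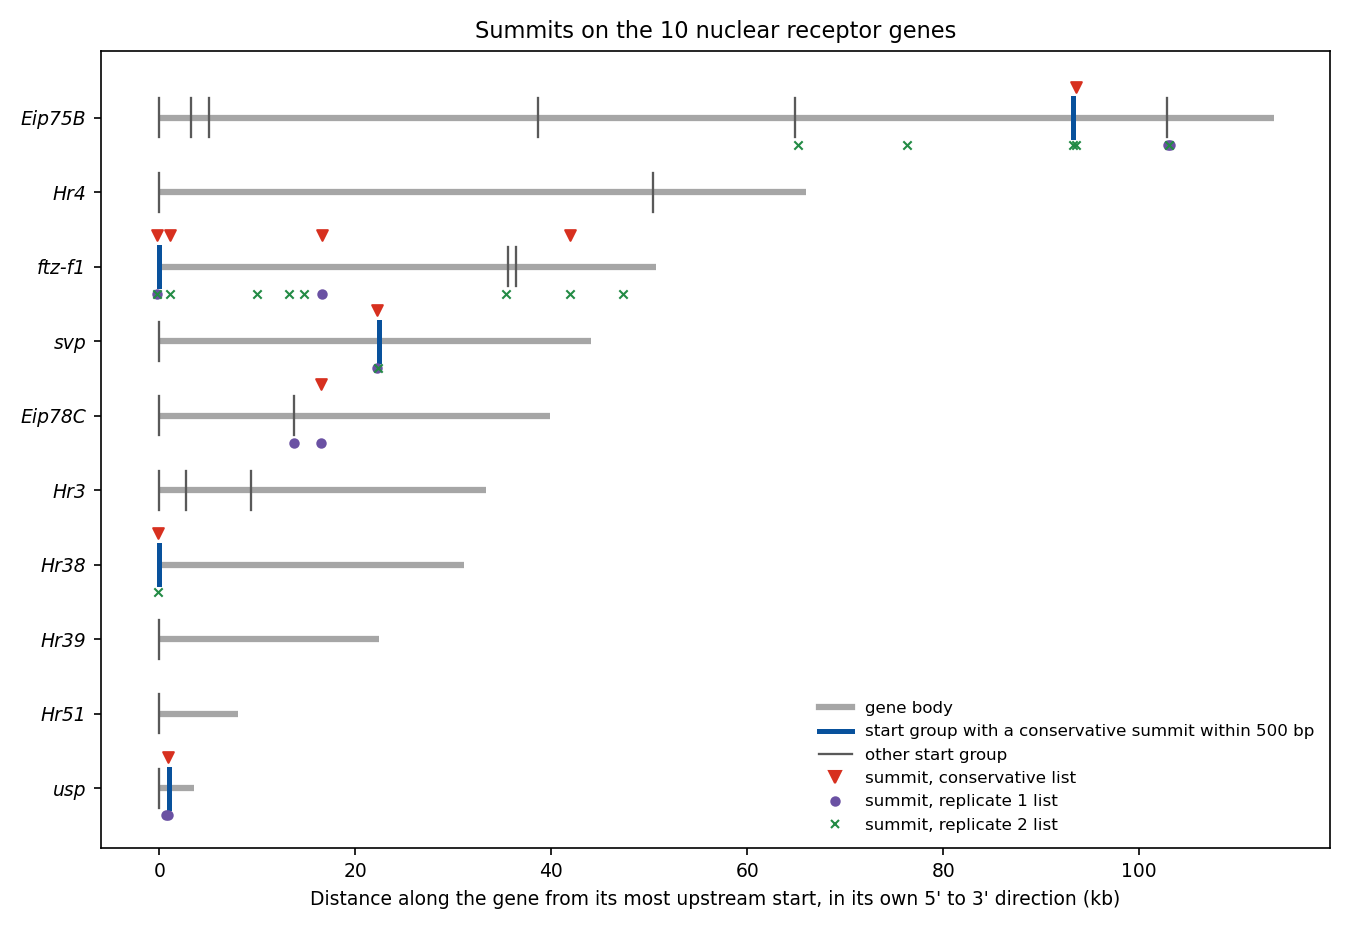
Position of summits on the 10 genes. The x axis is the distance in kb along each gene from its most upstream start, in the direction of transcription. Grey bars are gene bodies, vertical ticks are groups of starts, with those marked in the conservative list in blue, triangles above are conservative summits, and circles and crosses below are summits of the replicate 1 and replicate 2 lists. The 4 conservative summits on ftz-f1 and the crosses that spread over ftz-f1 and Eip75B stand out against the bare bars of Hr3, Hr4, Hr39 and Hr51.

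Usp is the fly orthologue of the vertebrate RXR receptors and the obligate partner of EcR. The gene usp (FBgn0003964) lies on the minus strand of X at 2038798 to 2042311 and has 2 annotated starts, whose transcripts usp-RB and usp-RA both encode 508 residues. The conservative peak ran from 2041228 to 2041637, with its summit at 2041433, 121 bp upstream of the inner start (usp-RA) and inside intron 2 of usp-RB, which is 74 bp long. Its signal, the caller's own value for a peak, was 199.6, rank 1009 of 2580, and the paired peaks of the single replicates had signals of 113 in replicate 1 and 72.4 in replicate 2. Replicate 1 listed the peak at rank 910 of 2217, and the replicate 2 list did not hold it. The outer start, usp-RB, had a ranked peak of 33.8 at an IDR of 0.656 and was in none of the lists. The summit also lay within the overlapping gene Actn, an alpha-actinin gene, and 435 bp from the divergent start of CG4313. The promoter it marks therefore cannot be told apart from that of CG4313 by the distance of 500 bp alone. Replicate 1 also listed a weaker peak (20.7, rank 2086 of 2217), with its summit 298 bp from usp-RA and 258 bp from CG4313.

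Eip75B encodes E75, a haem-binding relative of the vertebrate Rev-erb receptors that opposes Hr3, and its isoforms start at widely spaced promoters. It is the longest of the 10 genes (FBgn0000568, 3L 17950953 to 18064696, minus strand, 113.7 kb) and has 7 starts, each more than 500 bp from the next. Among them, only the start of Eip75B-RA, the transcript for a protein of 1355 residues, was marked in the conservative list. The peak at 17970995 to 17971404 had its summit 239 bp downstream of that start, in the 5′ UTR, with a signal of 171 at rank 1267 of 2580. The paired signals were 60.0 in replicate 1 and 109 in replicate 2, and the replicate 2 list held the peak at rank 928 of 2669 while the replicate 1 list did not hold it.

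Further starts of Eip75B were marked in the other lists. At Eip75B-RD, which encodes 906 residues, both replicate lists held a peak, with signals of 66.7 in replicate 1 (rank 1722 of 2217) and 135 in replicate 2 (rank 573 of 2669). In the list that pairs the replicates, the replicate 2 peak of 135 was paired with a neighbouring replicate 1 peak of 32.7, at an IDR of 0.0549, and the start was not in the conservative list although its signal there was 204. The replicate 1 list thus held a pair of peaks at this start, and the weaker one was matched to replicate 2. At Eip75B-RC, for 1199 residues, the paired signals were 37.9 and 110.0 at an IDR of 0.0127, and the replicate 2 list held the peak at rank 904. The starts of Eip75B-RG (104) and Eip75B-RE (50.2) had ranked peaks that reached no list, at IDRs of 0.167 and 0.569, and those of Eip75B-RB and Eip75B-RF had no ranked peak within 500 bp. Of the 7 starts, the marked ones were therefore 3 in the replicate 2 list, RA, RC and RD, all of them the starts nearest the 3′ end of the gene, and 1 in the replicate 1 list, RD.

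Eip78C, from the 78C puff, encodes a second relative of the Rev-erb receptors. It lies on the plus strand of 3L at 21226609 to 21266503 (FBgn0004865, 39.9 kb), with a group of starts for a protein of 862 residues and an inner start, Eip78C-RB, for 392 residues. The conservative summit at 21243119 lay 2772 bp downstream of the inner start, in intron 1 of 3 of Eip78C-RB and in an intron of 31685 bp of the other 3 transcripts. Its signal was 152, rank 1505 of 2580, with paired signals of 73.6 in replicate 1 and 58.1 in replicate 2. Only replicate 1 of the single lists held it, at rank 1556. The inner start itself had signals of 60.3 and 39.1 in the replicates at an IDR of 0.0550, and was in the replicate 1 list and the other list but not in the conservative list.

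Hr3 is the orthologue of the ROR receptors and activates ftz-f1 in the prepupa, and Hr4, related to the vertebrate GCNF receptor, acts beside it in that step. Neither had a summit in any of the 4 lists. Hr3 (FBgn0000448, 2R 10203995 to 10237348, minus strand) has 3 groups of starts. The innermost of them (Hr3-RA, RF and RH) had a strongest ranked peak of 32.7 in replicate 1 and 81.9 in replicate 2, and in the list that pairs the replicates its strongest peak had an IDR of 0.702. The other groups of Hr3 had no peak in that list. Hr4 (FBgn0264562, X 1941940 to 2007956, plus strand, 66.0 kb) had strongest ranked peaks of 27.2 in replicate 1 and 35.7 in replicate 2 at its outer group of starts, and of 21.5 and 31.9 at its inner group. In the list that pairs the replicates the strongest peaks there had IDRs of 0.445 and 0.355. With the IDR limit relaxed to 0.05, a summit lay on Hr4, away from its starts.

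The gene ftz-f1 encodes an orphan receptor of the NR5A family, known in 2 settings, as the cofactor of Fushi tarazu in the early embryo and as a competence factor for ecdysone in the prepupa. It lies on the minus strand of 3L at 18750607 to 18801309 (FBgn0001078, 50.7 kb) and carried 4 of the 9 conservative summits on the members. At least 4 summits were found on 19 of all protein-coding genes (0.136%), short genes included, and EcR, which is no member, carried 7. The strongest of any member, at 18801504 to 18801659, lay 234 bp upstream of the outermost start, that of ftz-f1-RB for 1027 residues, with a signal of 299 and rank 494 of 2580. Its paired signals were 139 in replicate 1 and 157 in replicate 2, at an IDR of 0.000143, and both replicate lists held it, at ranks 646 of 2217 and 394 of 2669. A noncoding gene on the same strand, lncRNA:CR45939, starts 231 bp downstream of this summit, so the pair of starts cannot be told apart.

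The other 3 summits on ftz-f1 were each in 1 replicate list only. The summit at 18759366 (161, rank 1389) lay in an intron of 7455 bp, which is the first intron of ftz-f1-RA, RC and RD, 5590 bp downstream of the start of ftz-f1-RA. Its paired signals were 56.7 and 82.8 in replicates 1 and 2, and the replicate 2 list held it. The summit at 18784752 (145, rank 1593) lay in the intron of 33674 bp of ftz-f1-RB, with paired signals of 91.4 and 63.3, and was in the replicate 1 list. The summit at 18800198 (115, rank 2080) lay in the 5′ UTR of ftz-f1-RB, 1111 bp downstream of the start, with paired signals of 50.9 and 79.1, and was in the replicate 2 list. Replicate 2 alone listed 8 summits on the gene and replicate 1 alone listed 2. Among the 8 was a peak of 71.5, rank 2014 of 2669, lying 162 bp upstream of the shared start of ftz-f1-RC and ftz-f1-RD, which were not marked in the conservative list. In the ranked list that pairs the replicates the strongest peak at that start had an IDR of 0.0636.

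Hr39 is the second NR5 receptor of the fly and the closest relative of ftz-f1. Its gene (FBgn0261239, 2L 21237250 to 21259675, plus strand, 22.4 kb) has 1 start for all 4 transcripts and was in neither replicate list. A ranked peak 163 bp upstream of that start had a signal of 127 in the list that pairs the replicates, at an IDR of 0.00986, and the strongest ranked peaks at the start were 40.6 in replicate 1 and 81.4 in replicate 2. That IDR is inside the limit of 0.01, but the peak was one of 88 among 2668 ranked peaks within the limit that the authors' conservative list did not hold. The intronic peak of the other list, at 21250825, had a signal of 102, with 23.8 and 98.3 in replicates 1 and 2 at an IDR of 0.471.

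The gene svp (seven-up) encodes the COUP-TF orthologue, known for photoreceptor fate and for timing in neuroblasts. It lies on the plus strand of 3R at 12258737 to 12302785 (FBgn0003651, 44.0 kb), and its starts fall into an outer one, svp-RC for 281 residues, and an inner group at 12281110 to 12281152, for proteins of 543 to 826 residues. The inner group was marked, by a peak at 12280776 to 12281185 with its summit 129 bp upstream, a signal of 264 and rank 618 of 2580. Both replicate lists held it, with 109 at rank 956 of 2217 in replicate 1 and 121 at rank 713 of 2669 in replicate 2, and the IDR was 0.000424. At the outer start no peak was ranked in either replicate or in the list that pairs them. The summit lay inside intron 1 of svp-RC, which is 31357 bp long.

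Hr38 is the orthologue of the NR4A receptors and can pair with Usp. The gene (FBgn0014859, 2L 20683462 to 20714588, minus strand, 31.1 kb) has 1 start, and a peak at 20714505 to 20714914 had its summit 122 bp upstream of it. The signal was 119.9, rank 1997 of 2580, with paired signals of 44.9 in replicate 1 and 66.9 in replicate 2. This was the weakest promoter peak of the 5, with an IDR of 0.00800 and a deposited q-value of 0.118, and only the replicate 2 list held it, at rank 2202 of 2669. Hr51, also named unfulfilled, is the PNR orthologue and is known from mushroom body neurons. Its gene (FBgn0034012, 2R 15331325 to 15339384, plus strand, 8.1 kb) had a ranked peak of 30.3 at its start in replicate 1 and none in replicate 2.

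**Figure D2:**
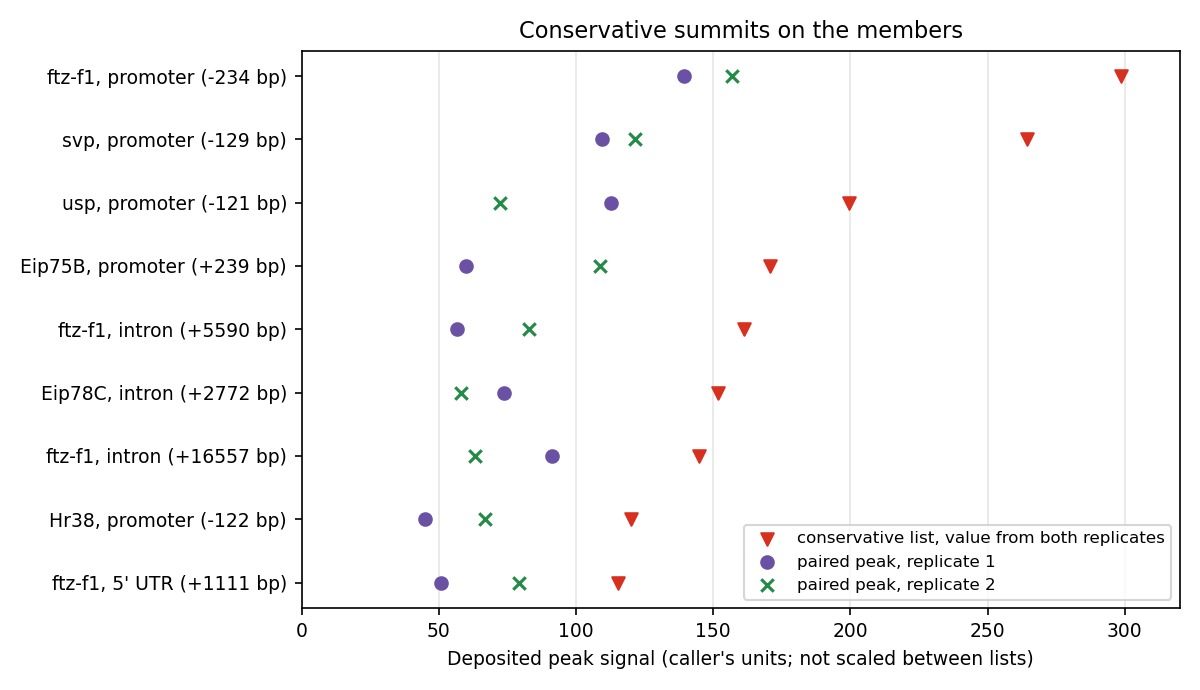
Deposited signal of the 9 conservative summits on the members. The x axis is the caller's signal, which has no common scale between lists, triangles are values of the conservative list, and circles and crosses are the paired peaks of replicates 1 and 2. The promoters of ftz-f1 (299) and svp (264) lead, and the promoter of Hr38 (119.9) and the 5′ UTR peak of ftz-f1 (115) are lowest.

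The standing of each start was taken from the strongest ranked peak within 500 bp of it in each replicate. Starts up to 500 bp apart were taken as 1 group, which gave 17177 groups over all protein-coding genes and 24 over the members. In the conservative list 5 of the 24 groups were marked, against 15.1% of all groups. For the start of ftz-f1-RB, 5.12% of all groups had a stronger peak in replicate 1 and 2.91% in replicate 2. For the inner group of svp these shares were 7.34% and 5.12%. By signal in the conservative list these 2 genes had the strongest marked starts of the family, although usp-RA stood above svp in replicate 1.

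The other 3 marked starts stood as follows. At usp-RA, 7.0% of all groups were stronger in replicate 1 and 14.2% in replicate 2. At Eip75B-RA the shares were 14.2% and 6.50%, and at Hr38 they were 19.9% and 16.3%. Among unmarked starts, Eip75B-RD stood at 12.8% and 4.18%, and Hr39 at 23.1% and 11.7%. In each replicate Eip75B-RD thus ranked above the marked starts of Hr38 and Eip75B-RA. The Eip78C-RB start stood at 14.1% in replicate 1 and 38.7% in replicate 2, the widest gap of these.

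**Figure D3:**
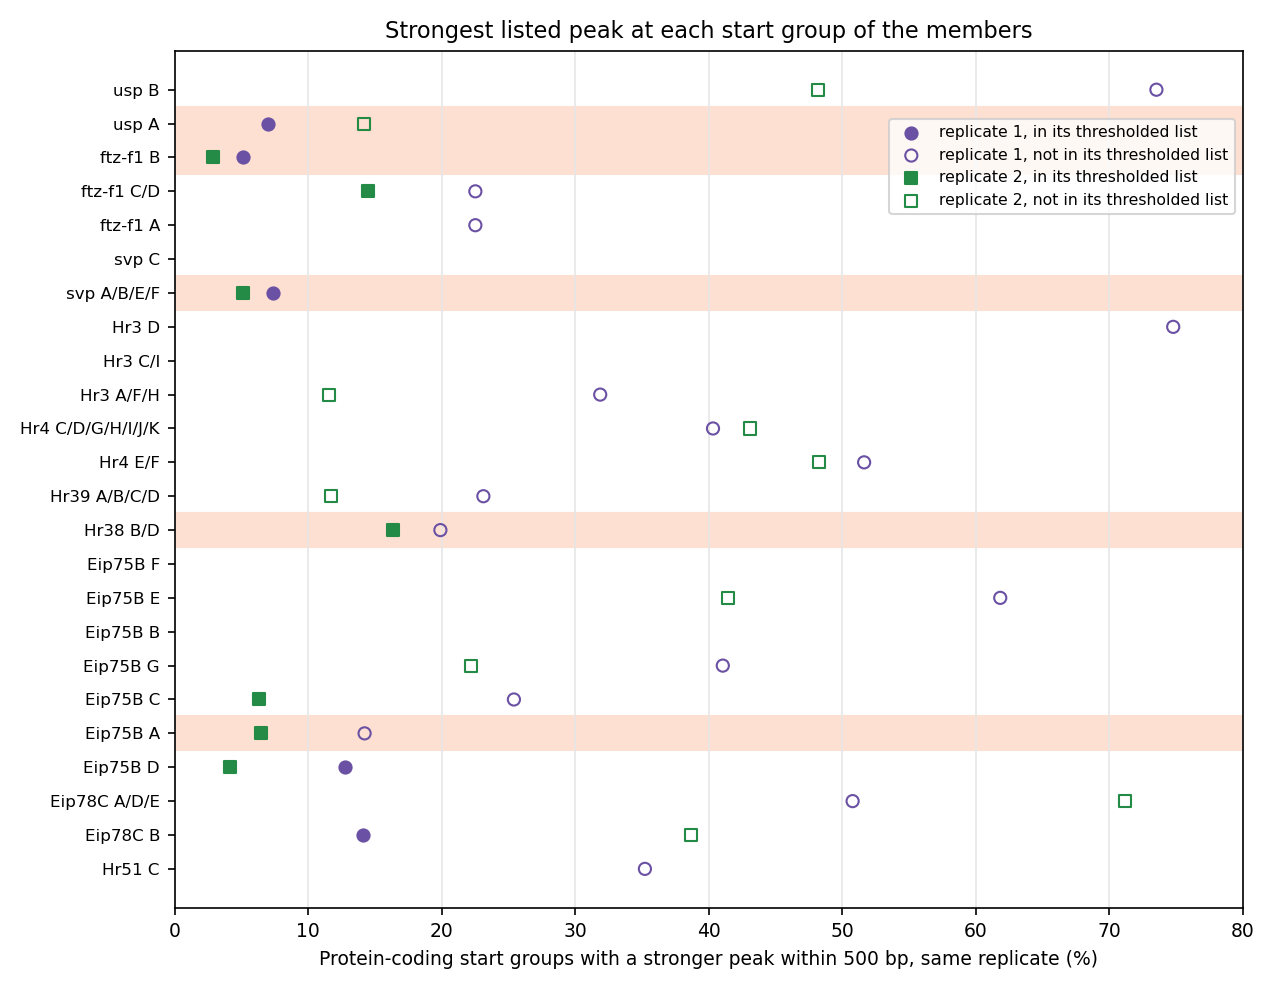
Standing of each start group of the members among all 17177 groups. The x axis is the percentage of groups with a stronger peak within 500 bp in the same replicate, so that points to the left are stronger. Circles are replicate 1 and squares replicate 2, filled where the peak is in that replicate's thresholded list, shaded bands are groups marked in the conservative list, and groups with no ranked peak in a replicate have no point. The start ftz-f1 B lies furthest left in both replicates, at 5.12% and 2.91%.

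Groups without a mark were spread widely. Of the 24 groups, 4 had no ranked peak in replicate 1 and 7 had none in replicate 2. With such groups counted as 0, the median strongest signal of the 24 was 31.5 in replicate 1 and 38.04 in replicate 2, against 22.2 and 30.8 over all groups. Without the 5 marked groups, the other 19 had medians of 26.8 and 32.0. In the list that pairs the replicates the median was 68.0 for the 24 and 38.1 for the 19, against 47.9 over all groups. The set of all groups keeps its own marked groups, so it is unlike the 19. Of the 24 groups, 15 were above the median of all groups in replicate 1 and 16 in replicate 2.

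Most members are long genes, and several have many starts, so their counts were also set beside genes like them. The median length of the members was 36.6 kb, and 8 of them span at least 20 kb. Of all 1020 genes of that length, 22.5% had a promoter summit and 29.2% a summit anywhere on the gene, and of the 8 members 4 had the first and 5 the second. Of 648 genes with at least 3 groups of starts, 39.7% had a summit on the gene, and of the 3 such members, Eip75B, ftz-f1 and Hr3, it was 2. Within genes of this kind 10.3% of the groups were marked, which is 2 of 13 groups in these 3 members. With counts as small as these the shares of the members are descriptions only.

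**Figure D4:**
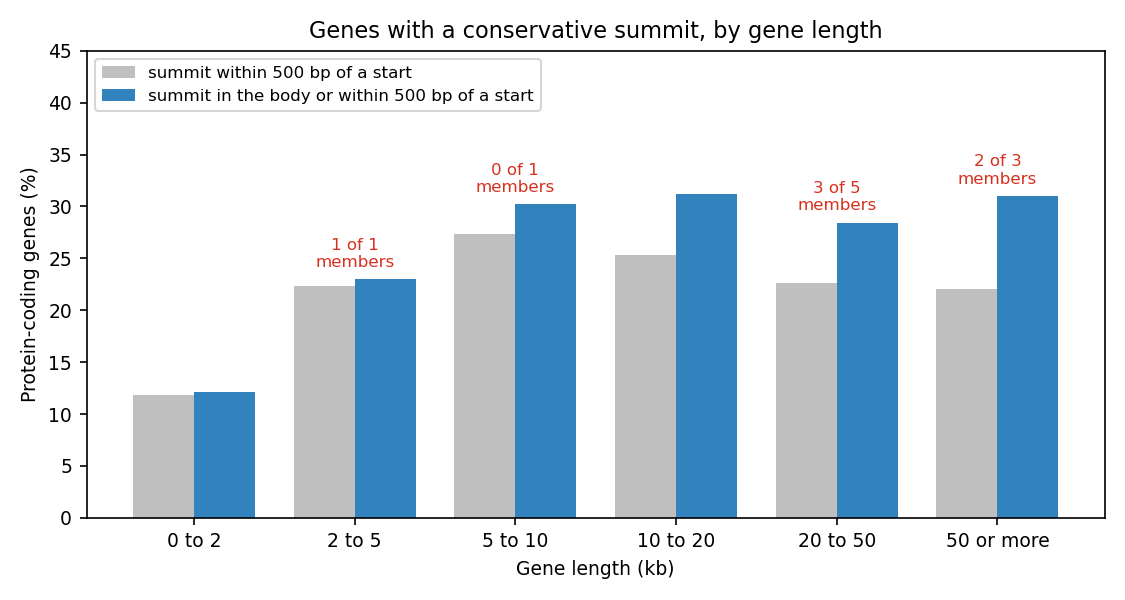
Share of protein-coding genes with a conservative summit, by gene length. The x axis is gene length in kb and the y axis the percentage of genes, grey bars count summits within 500 bp of a start, blue bars count those in the gene body as well, and the red text gives the members with a summit in each class. The blue bars rise from 12.2% below 2 kb to 30.2% at 5 to 10 kb and stay between 28.4% and 31.2% in longer genes.

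Summits away from starts were counted apart. Of the members' 9 conservative summits, 4 (44.4%) lay more than 500 bp from the start of any gene, against 14.1% of all 2580. Those that did so in an intron were 3 of the 9 (33.3%), against 7.64% of all 2580. The 2 sets are unlike, since a member summit lies on its gene by rule and most members are long. The 2580 may lie anywhere and on genes of any length. All 3 intronic summits were on ftz-f1 and Eip78C. The single lists were counted by distance to the members' own starts instead. In the replicate 2 list alone the members had 6 intronic summits more than 500 bp from their own starts, 5 of them on ftz-f1 and 1 on Eip75B. In the replicate 1 list alone they had 2. Of the 5 on ftz-f1, 1 lay 97 bp from the start of a noncoding gene, lncRNA:CR45938.

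Short strings near the summits were counted beside those near all summits and near starts. CGATA, the core bound by the boundary protein BEAF-32, was found on either strand within 100 bp of 3 of the 9 summits (33.3%), against 65.0% of all 2580 summits and 37.1% of windows of the same length at 19275 protein-coding starts. Within 200 bp the shares were 66.7% of the members' summits and 75.4% of all. At 100 bp the 3 were the promoter of usp, the promoter of ftz-f1 and the ftz-f1 intron at 18759366. The share of all summits with CGATA was 70.5% within 500 bp of a start and 31.4% farther away. On the members it was 2 of 5 promoter summits and 1 of 4 others. In the single lists CGATA was at 33.3% of member summits in replicate 1, against 72.1% of all, and at 20% in replicate 2, against 60.3% of all. The palindrome TATCGATA, the DNA replication-related element that DREF binds and that contains CGATA, was found at the ftz-f1 promoter alone, 57.5 bp from the summit, as printed above, against 23.4% of all summits and 6.44% of starts. GGTCACAC, the Motif 1 string, and CAGGTA, the Zelda site, matched none of the 9, against 5.70% and 4.65% of all summits.

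GAGAG, the type of string bound by GAGA factor, was at 7 of the 9 summits (77.8%), against 24.0% of all summits and 24.97% of starts. It lay at all 4 summits of ftz-f1, at the promoters of svp and Hr38 and in the intron of Eip78C, while those of usp and Eip75B had none. Overlapping matches counted, svp and Hr38 held 4 each, and the nearest lay 19 bp from the svp summit and 3 bp from that of Hr38. Since 4 of the 7 are on 1 gene, the count by gene is 4 of 6. The share of all summits with GAGAG was 21.3% within 500 bp of a start and 39.9% farther away, and on the members it was 3 of 5 promoter summits and 4 of 4 others. In the single lists GAGAG was at 66.7% of member summits in replicate 1, against 18.9% of all, and at 80% in replicate 2, against 28.4% of all. The windows also differed in base composition, with a GC content of 56.2% at svp, 61.7% at Hr38 and 35.3% at the ftz-f1 summit 18784752, against a median of 41.8% over all summits, and its part in the matches was not tested.

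The half-site of nuclear receptors themselves, AGGTCA, was rare over all peaks. It was found at 2 of the 9 summits (22.2%), against 2.98% of all summits and 3.26% of starts. The share of all summits with it was 2.71% within 500 bp of a start and 4.68% farther away. On the members it was 0 of 5 promoter summits and 2 of 4 others. Each of these 2 summits was in 1 replicate list only, and neither remained with the IDR limited to 0.001. The count of the half-site was not recomputed with other lists, limits or string windows. The matches lay 6.5 bp from the ftz-f1 summit at 18759366 and 68.5 bp from the summit of Eip78C. Both are in introns and both are printed above as TGACCT. The form CAAGGTCA, which holds AGGTCA with the extension that NR5 receptors prefer, matched none of the 9, against 0.349% of all summits.

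**Figure D5:**
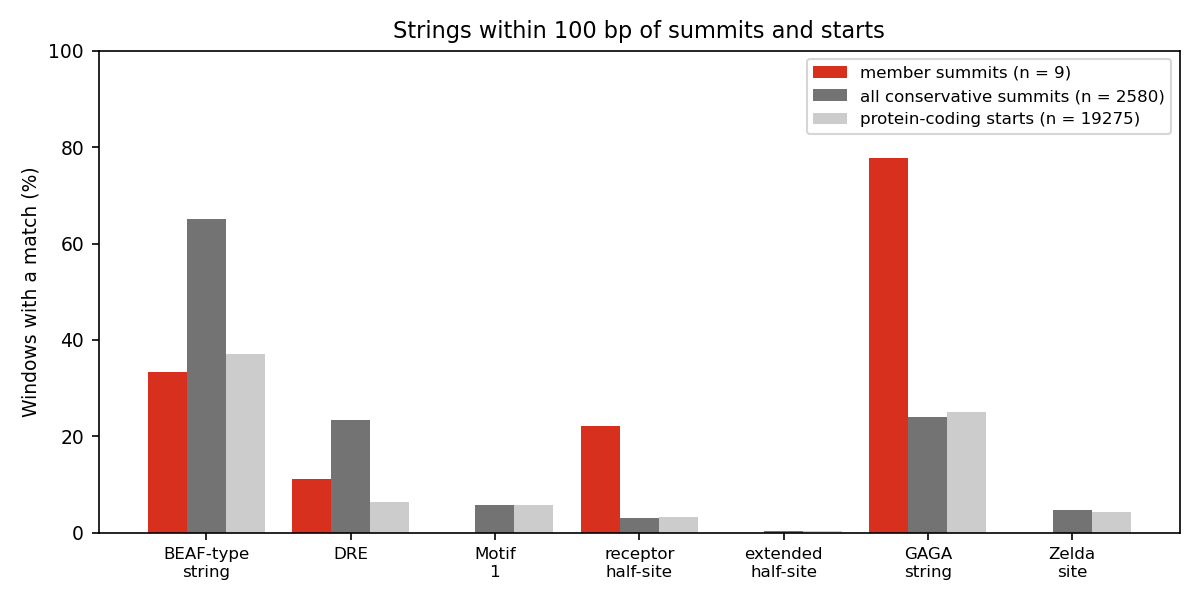
Share of windows reaching 100 bp to either side with a match to each of 7 strings. The y axis is the percentage of windows, red bars are the 9 member summits, dark grey bars all 2580 conservative summits and light grey bars 19275 protein-coding starts. Both sets of summits pool those near starts and those farther away. Red exceeds both grey bars for the GAGA string (77.8% against 24.0% and 24.97%) and the receptor half-site (22.2% against 2.98% and 3.26%), and for the BEAF-type string, CGATA in the text, it is lower than all summits (33.3% against 65.0%).

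Other genes of the pathway were described by lists. Among 11 further nuclear receptor genes, 4 (36.4%) had a promoter summit in the conservative list, against 18.2% of all genes. They were EcR, the ecdysone receptor (181, with 61.0 and 112 in replicates 1 and 2), Hr78 (145), Hr96, a receptor of xenobiotic and lipid metabolism (260), and Hnf4, of lipid metabolism (127). The peak at Hr96 lay nearer the start of EMC6, at 38 bp. In the single lists the count was 1 of 11 in replicate 1 (16.4% of all genes) and 3 of 11 in replicate 2 (17.7% of all genes). The promoter of Hnf4 was in neither.

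Hormone response genes that are not receptors, genes of hormone metabolism and cofactor genes made up the other lists. Beside each of their conservative counts stands the 18.2% of all genes with a promoter summit. Of 17 response genes, among them br, Eip93F and Eip74EF, 1 (5.88%) had a promoter summit, E23, the gene of an ecdysone-induced ABC transporter (164). Of 12 genes for synthesis, uptake and inactivation of the hormone 1 (8.33%) had a promoter summit, Npc1a, a sterol transport gene (81.8, nearer the start of Prosalpha6). Of 9 genes for receptor cofactors 5 (55.6%) had a promoter summit. They were tai, a p160 coactivator of EcR (116), mbf1, which bridges Ftz-f1 to TBP (115), bon, the TIF1 homologue (133), E(bx), of the NURF remodeller (199.9), and Hsp83, the Hsp90 gene (235, nearer the start of CG14965). In the single lists the cofactor count was 2 of 9 in replicate 1 (16.4% of all genes) and 3 of 9 in replicate 2 (17.7% of all genes). Response genes numbered 0 of 17 in replicate 1 and 2 of 17 in replicate 2, with E23 in replicate 2 only. Genes of hormone synthesis, uptake and inactivation numbered 0 of 12 and 1 of 12. The promoters of tai, mbf1 and Npc1a were in neither.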

How the data were processed

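Chromatin was sonicated to 200 to 800 bp, per the labels. The authors deposited IDR-thresholded and ranked peak lists on dm6, a list of each kind for each replicate and lists from both, per the notes deposited with the samples. Neither aligner nor peak caller is given in the sources used here. A peak's deposited signal is the caller's value, with no stated scaling between lists, so it was ranked only within a list. In thresholded lists the authors' −log10 column holds the q-value, and in ranked lists it holds the global IDR, the expected share of peaks that do not repeat. Conservative peaks were joined by coordinates and summit to each replicate's own ranked list, which gave a value for 2574 of 2580 in replicate 1 and 2575 in replicate 2. Genes, starts and introns came from the Ensembl annotation of release 115 and sequence from RefSeq, both of the dm6 assembly. Summits of the 7 arms were assigned by body or by distance to a start, on 1-based coordinates. Strings were searched on both strands. No test was made, since the 2 replicates form 1 group with no control analysed here, and shares are given beside those of all genes, summits or starts. Read counts are not part of the lists, so no interval was computed. The counting was tested on simulated peaks with known positions. Python 3.11.15, numpy 2.4.6, pandas 2.3.3 and matplotlib 3.10.9 were used.

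The members, lists and strings were chosen with earlier results of these data known. Named genes were the 10 members with every conservative summit, or the best ranked peak at each start group where there was none, the genes with the nearest starts where they bear on a peak, and every gene of the other lists with a promoter summit. The symbol phm, 1 of the list symbols, did not match the annotation and is not reported. Alternatives were the other list, each replicate alone, start windows of 250 and 1000 bp, IDR limits of 0.001 and 0.05, a q-value limit of 0.05, 1 peak per replicate pair, the peak interval, protein-coding transcripts, starts grouped up to 200 bp apart and string windows of 50 and 200 bp.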

Additional observations from a re-analysis of the deposited data

How the results depend on the processing

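Of 72 recomputed counts 50 stayed within 1.5 times their value and 22 moved further. At an IDR of at most 0.001 the counts fell to 2 members with a promoter summit, 2 with a summit on the gene, 2 summits (the promoters of ftz-f1 and svp), 0 of them intronic, 2 marked start groups, 1 summit with CGATA and 2 with GAGAG. Of all summits within that limit of 0.001, 82.4% had CGATA and 17.1% had GAGAG. An IDR limit of 0.05 gave 19 summits, 11 intronic and 11 with GAGAG (57.9% against 25.99% of all summits). CGATA was at 3 of these 19 (15.8% against 48.5% of all summits). The other list from both replicates gave 18 summits, 8 intronic, 8 marked groups and 16 with GAGAG (88.9% against 26.3% of all summits). Requiring the peak interval to cover a start left 3 members and 3 groups. A q-value limit of 0.05 left 7 summits and promoter summits at 4 members, without Hr38, against 13.9% of all genes. Within 50 bp, 1 summit had CGATA (11.1% against 54.5% of all summits) and 4 had GAGAG (44.4% against 12.8%). Within 200 bp, 6 had CGATA (66.7% against 75.4% of all summits), a smaller gap than at 100 bp. With each replicate left out in turn, the ranges were 4 to 5 members with a promoter summit, 4 to 5 with a summit on the gene, 9 to 15 summits, 2 to 6 intronic, 5 to 7 marked groups, 3 to 3 with CGATA and 6 to 12 with GAGAG. The GAGAG alternatives were chosen after seeing the data, and the cause of these changes was not tested. No paired analysis was possible because the 2 replicates form 1 group. Depth is unknown, and a member outside a list is one whose peaks did not enter that list, since unlisted starts also had ranked peaks.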
